A study of Mus musculus with 12 samples.

Results

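The 10 genes described here encode the hexose transporters of the Slc2a family and the monocarboxylate transporters of the Slc16a family that are best known in brain. They were chosen by gene name, 7 from Slc2a (Slc2a1, Slc2a3, Slc2a4, Slc2a5, Slc2a8, Slc2a12 and Slc2a13) and 3 from Slc16a (Slc16a1, Slc16a3 and Slc16a7), out of 43346 genes measured. All 10 were measured in all 12 libraries and passed the filter on low counts, which left 22553 genes for testing. RNA was sequenced from cross-sections of mouse brain that held hippocampus and cortex, with 4 libraries in each of 3 groups. The Old_CP2 group was 23 months of age, with C57BL/6;SJL-Tg as its strain, and drank CP2, an inhibitor of mitochondrial complex I, at 25 mg per kg per day in 0.1% polyethylene glycol from 9 months of age. The Old group, of that age and strain too, drank the vehicle alone, 0.1% polyethylene glycol, from 9 months of age. The Young group was 3 months of age, with C57BL/6 as its strain, and had no treatment. All 3 groups are labelled wild type, whereas the design text of the series speaks of APP/PS1 mice, a model of Alzheimer's disease, beside nontransgenic ones, and this conflict could not be settled. Age, strain label and vehicle differ together between either old group and Young, as do the markers of brain regions given below, and these cannot be told apart. The labels do not say that libraries came from separate animals, so p-values measure the spread between these libraries.

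Glucose enters brain through GLUT1 (Slc2a1) in the endothelium of the blood-brain barrier and in astrocytes, and neurons take it up mainly through GLUT3 (Slc2a3). Glycolysis in astrocytes can end in lactate, which leaves through the monocarboxylate transporters MCT1 (Slc16a1) and MCT4 (Slc16a3) and enters neurons through MCT2 (Slc16a7). MCT1 also carries lactate and ketone bodies across the endothelium and is found in oligodendrocytes. A block of complex I lowers respiration and can make cells lean on glycolysis, which is why uptake of glucose and traffic of lactate are of interest in these groups.

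Depth was 78021395 to 99449665 counts per library in Old_CP2, 70548781 to 94741585 in Old and 77469073 to 91549618 in Young. Markers of neurons, astrocytes, oligodendrocytes, microglia and endothelium were present in every library. The libraries differed in markers of the choroid plexus, the tissue in the ventricles that makes cerebrospinal fluid. The summed level of 12 choroid plexus markers was 231.5, 1439, 1375 and 341.8 normalised CPM (counts scaled to depth with TMM factors) in Old_CP2 libraries 11, 12, 13 and 15, and 539.1, 1787, 267 and 1518 CPM in Old libraries 7, 8, 9 and 10. It was 2006 to 3210 CPM in Young. Old_CP2 libraries 11 and 15 and Old libraries 7 and 9 are the 4 lowest, and values without these 4 are given beside the differences that they move most. That setting keeps only Old_CP2 libraries 12 and 13 and Old libraries 8 and 10, beside all 4 Young libraries. Its adjusted p-values thus rest on fewer libraries, and this cannot be told apart from a part of choroid plexus. The summed level of 8 striatal markers was 184.1 to 258.4 CPM in Old_CP2, 183.4 to 243.2 CPM in Old and 292.5 to 478.1 CPM in Young, and that of 6 midbrain and hindbrain markers was 18.99 to 66.81, 27.03 to 64.94 and 3.54 to 5.04 CPM in the same 3 groups. For 6 hypothalamic markers it was 3.04 to 60.74 CPM in Old_CP2, 2.44 to 24.08 CPM in Old and 43.80 to 235.7 CPM in Young. For 6 thalamic and habenular markers it was 143.5 to 326.4, 183.1 to 338.8 and 402.6 to 635.2 CPM in the same 3 groups. Region markers thus differ between Young and the old groups together with age, strain label and vehicle. Fewer cells of a type and less RNA per cell cannot be told apart in such bulk libraries.

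The promoters of the members with the clearest differences are shown first. They are the 250 bases before the RefSeq start on GRCm38.p6, for Slc16a1 and Slc16a3, each called in a comparison below, and for Slc2a12, whose old libraries all lay under the Young ones. Capitals mark matches to either of 2 motifs on either strand. The motif ACGTG is the core of the sites bound by hypoxia-inducible factors, and it overlaps the E-box, CACGTG, which reads the same on both strands. The motif GGGCGG is the GC box.
Slc16a1, chr3:104638414-104638663, plus strand: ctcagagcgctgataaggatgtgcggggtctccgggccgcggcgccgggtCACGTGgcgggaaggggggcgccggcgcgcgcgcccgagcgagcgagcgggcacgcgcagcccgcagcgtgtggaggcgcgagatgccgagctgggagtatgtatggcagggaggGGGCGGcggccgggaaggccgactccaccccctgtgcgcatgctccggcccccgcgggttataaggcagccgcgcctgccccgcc
Slc16a3, chr11:120948817-120949066, plus strand: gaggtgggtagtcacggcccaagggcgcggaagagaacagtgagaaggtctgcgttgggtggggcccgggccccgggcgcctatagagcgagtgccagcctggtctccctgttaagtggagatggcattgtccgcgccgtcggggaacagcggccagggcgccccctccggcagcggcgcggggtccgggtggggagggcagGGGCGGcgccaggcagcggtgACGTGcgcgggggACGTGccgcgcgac
Slc2a12, chr10:22644761-22645010, plus strand: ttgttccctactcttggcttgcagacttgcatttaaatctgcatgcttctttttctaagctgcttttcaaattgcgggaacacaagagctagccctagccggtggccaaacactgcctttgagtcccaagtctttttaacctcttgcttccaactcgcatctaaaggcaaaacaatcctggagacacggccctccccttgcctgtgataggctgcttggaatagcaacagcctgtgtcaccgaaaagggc
The Slc16a1 window held 1 CACGTG beginning 200 bases before the start and 1 GGGCGG beginning 85 bases before it. The Slc16a3 window held ACGTG beginning 27 and 14 bases before the start and GGGCGG beginning 48 bases before it. The RefSeq start of Slc16a3 lies downstream of the gene start in the deposited table, so this window lies within the deposited gene. The Slc2a12 window held neither motif, nor TATAAA or CCAAT on either strand. Over 32851 RefSeq windows of this length, 16.6% held ACGTG, 6.02% CACGTG, 32.7% GGGCGG, 12.4% TATAAA and 33.8% CCAAT, so matches of this kind are common. The Slc16a1 window had 37 CpG dinucleotides and 76.4% G and C, that of Slc16a3 29 and 73.6%, and that of Slc2a12 5 and 48.8%, against medians of 6 and 52.4% over all windows. Windows of 7 of the 10 members were found by symbol, and Slc2a3, Slc2a4 and Slc16a7 had none. Members called in no comparison held the motifs too. The Slc2a1 window held 1 ACGTG and 2 GGGCGG, that of Slc2a5 3 GGGCGG and that of Slc2a13 2 GGGCGG, while that of Slc2a8 held neither motif.

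Levels were compared between members per length, in the deposited RPKM. Slc2a1 was the most abundant, with 26.24 ± 1.66 RPKM in Old_CP2, 22.42 ± 0.958 in Old and 25.33 ± 2.02 in Young (SD, n = 4 each). Over all 12 libraries it averaged 24.66 ± 2.24 RPKM, Slc2a3 15.04 ± 1.48, Slc2a13 12.94 ± 1.75 and Slc16a1 9.04 ± 1.20 (SD, n = 12). Slc2a13 encodes HMIT, a proton-coupled transporter of myo-inositol, so this abundant member is known for carrying inositol rather than glucose. Slc2a8, whose product GLUT8 is held largely on membranes inside the cell, averaged 4.72 RPKM. Slc16a7 averaged 3.14 RPKM and Slc2a12 2.62 RPKM. Slc2a5, the fructose transporter GLUT5, found in brain mainly in microglia, averaged 1.11 RPKM, Slc16a3 0.645 RPKM and Slc2a4, the insulin-responsive GLUT4, 0.381 RPKM. Slc2a4 rested on 87 to 232 reads per library.

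Parts of this order held in every library and parts did not. Slc2a1 was above Slc2a3 in 12 of 12 libraries, by 1.398 to 1.986 times. Slc2a3 was above Slc2a13 in 4 of 4 Old_CP2 and 4 of 4 Old libraries but in 2 of 4 Young libraries, and likewise Slc16a7 was above Slc2a12 in all 8 old libraries but in 2 of 4 Young libraries. Ranges over the 12 libraries also overlapped between Slc2a13 and Slc16a1, between Slc2a5 and Slc16a3 and between Slc16a3 and Slc2a4, whose RPKM were nearly equal in 1 library (ratio 1.001). The deposited length of Slc16a7 is 3890 bases, against 11839 exon bases in GENCODE vM21, and its RPKM and rank depend on that length. In the other 9 members the lengths were equal, except Slc2a1 with 2853 deposited and 3506 annotated bases.

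**Figure D1:**
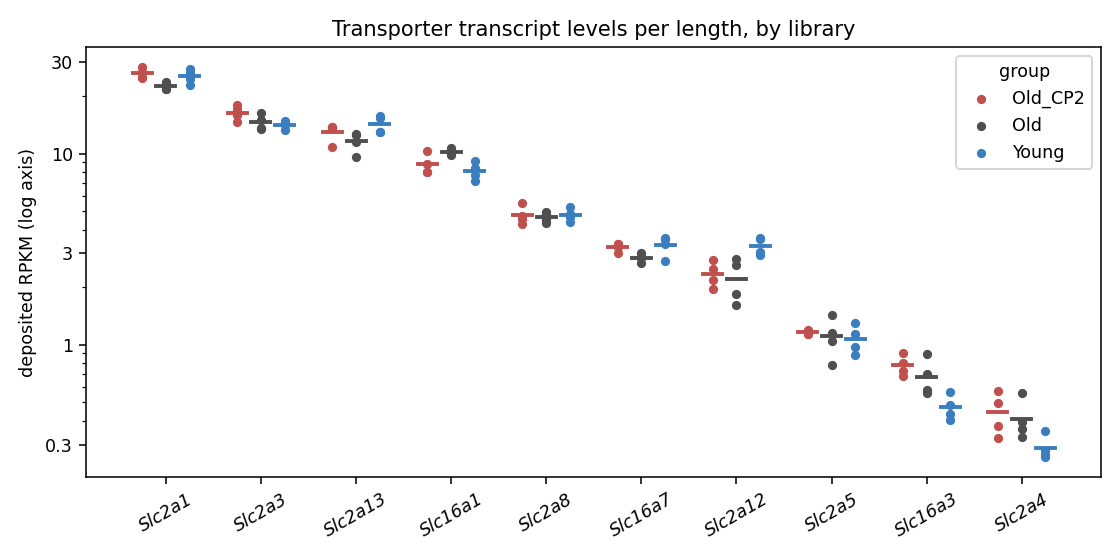
Deposited RPKM of the 10 transporters (log axis) in each library (points) with the group mean (line), in the order of their mean over 12 libraries. Slc2a1 lies highest at 21.65 to 28.38 RPKM and Slc2a4 lowest, and the change of order between Slc2a3 and Slc2a13 is seen in Young.

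Summed over the 7 Slc2a members, RPKM was 64.32 ± 1.90 in Old_CP2, 56.93 ± 3.36 in Old and 63.20 ± 2.85 in Young (SD, n = 4 each). The Old_CP2 libraries (63.11 to 67.13) and the Young libraries (61.23 to 67.42) all lay above the Old libraries (53.11 to 61.22), by a narrow margin in Young. Summed over the 3 Slc16a members, RPKM was 12.79 ± 0.903 in Old_CP2, 13.77 ± 0.163 in Old and 11.90 ± 0.898 in Young. Within that sum the share of Slc16a1 was 68.37% ± 3.64 in Old_CP2, 74.34% ± 1.88 in Old and 68.10% ± 3.84 in Young. The share of Slc16a7, the neuronal carrier, was 25.49% ± 2.98 in Old_CP2, 20.71% ± 1.13 in Old and 27.94% ± 3.56 in Young. Both shares and the Slc16a sum depend on the deposited length of Slc16a7, which is shorter than annotated, as given above. With RPKM recomputed on TMM-scaled totals the Slc2a sums were 75.82 (Old_CP2), 70.14 (Old) and 77.78 (Young), and Slc2a1 was 30.92, 27.63 and 31.19 RPKM in the same groups. On that scale Old_CP2 lay below Young in both, and not above it as with the deposited RPKM, while Old stayed lowest. These recomputed values are group means, so they do not show whether the libraries of the groups stay apart on that scale. These sums and shares are descriptions with no test.

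The first comparison asks what CP2 did at the same age and strain label, Old_CP2 against Old. None of the 10 members was called by edgeR's quasi-likelihood test at an adjusted p under 0.05, and over all 22553 genes 10 were called (0.0443%; 0.0266% higher and 0.0177% lower). At an unadjusted p under 0.05 there were 2 members, Slc16a1 (lower) and Slc2a1 (higher), against 6.31% of all genes. DESeq2 and limma voom also called 0 members. Slc16a1 alone had no overlap between its 4 and 4 values, which 3.44% of all genes had (1.62% higher and 1.82% lower). The median log2 fold change of the members was 0.07, against 0.0017 over all genes tested.

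Between Old and Young, where age, strain label, vehicle and region markers differ, 1 member was called, Slc16a1, which was higher in Old. Over all genes 6.70% were called, 3.96% higher and 2.74% lower, so 1 of 10 is near the background. At an unadjusted p under 0.05 there were 7 members (Slc16a1, Slc16a3, Slc2a12, Slc2a13, Slc2a1, Slc2a4 and Slc16a7), against 21.4% of all genes. Slc16a1 and Slc2a12 had no overlap between the groups, against 13.3% of all genes (6.94% higher and 6.32% lower). Of the 7, 3 were higher in Old and 4 lower, and the median log2 fold change of the 10 members was -0.0004, against -0.0034 over all genes tested.

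Between Old_CP2 and Young 1 member was called, Slc16a3, which was higher in Old_CP2. Over all genes 7.57% were called, 4.63% higher and 2.94% lower. At an unadjusted p under 0.05 there were 3 members (Slc16a3, Slc2a12 and Slc2a4), against 23.2% of all genes, and Slc16a3 and Slc2a12 had no overlap, against 15.5% of all genes (8.42% higher and 7.07% lower). The median log2 fold change of the members was 0.02, against -0.0076 over all genes tested. The 3 comparisons share libraries with each other and are not independent, so the values of each member are set side by side.

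**Figure D2:**
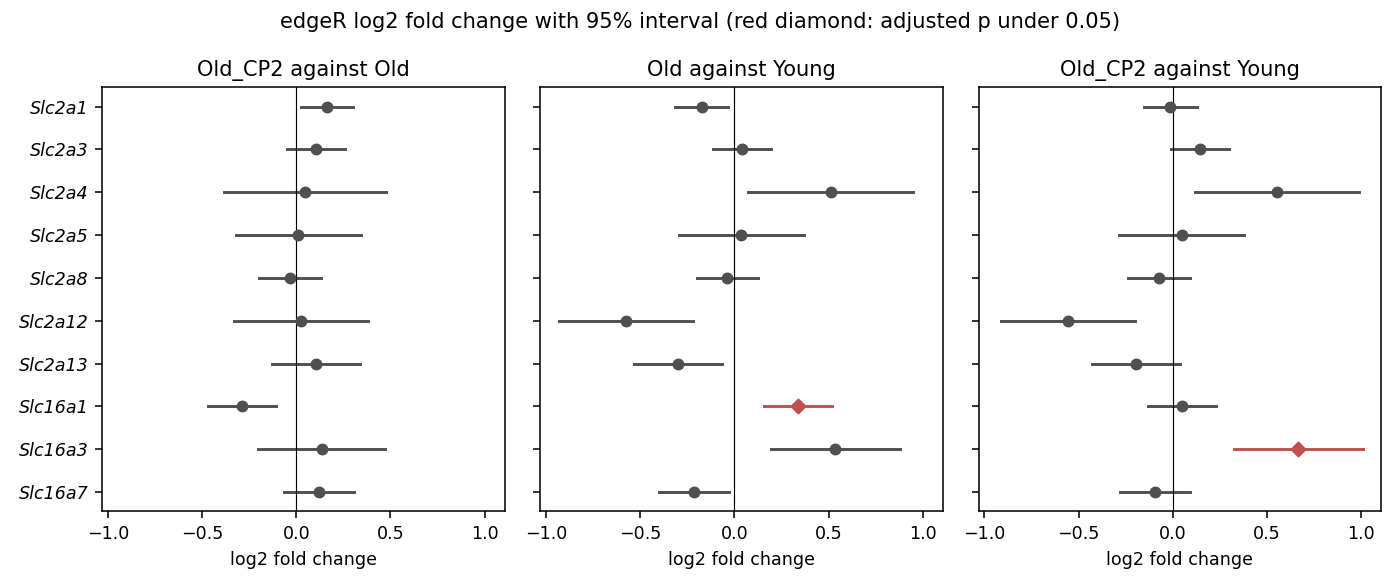
Log2 fold change of each transporter (point) with its 95% interval (line) from edgeR's quasi-likelihood test in the 3 comparisons, the first-named group over the second. Slc16a1 in Old against Young (0.34) and Slc16a3 in Old_CP2 against Young (0.67) are the 2 called values, drawn as red diamonds.

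Slc16a1 (ENSMUSG00000032902; mm10 chromosome 3, 104638668 to 104658462, plus strand) encodes MCT1. It had 41.86, 46.39, 41.66 and 52.96 normalised CPM in Old_CP2 libraries, 57.11, 57.90, 54.28 and 54.07 CPM in Old libraries, and 46.65, 41.99, 38.89 and 49.22 CPM in Young libraries. All 4 Old libraries were above all 8 others, and the Old_CP2 and Young libraries overlapped. It rose by 26.3% in Old against Young, a log2 fold change of 0.34 ± 0.08 (SE; edgeR adjusted p = 0.03172; 95% interval 0.16 to 0.52). In Old_CP2 against Old its log2 fold change was -0.29 ± 0.08 (95% interval -0.47 to -0.11), with an unadjusted p of 0.004352 but an edgeR adjusted p of 0.4742. In Old_CP2 against Young it was 0.05 (95% interval -0.13 to 0.23; edgeR adjusted p = 0.783). The call in Old against Young was lost when any of 5 libraries was left out, with edgeR adjusted p of 0.06777 without Old 7, 0.0688 without Old 8, 0.05664 without Old 9, 0.07848 without Young 3 and 0.08686 without Young 4. The log2 fold change stayed between 0.29 and 0.40 over the 12 libraries left out in turn. It was 0.32 (edgeR adjusted p = 0.1624) with the choroid plexus markers as a covariate and 0.34 (edgeR adjusted p = 0.08918) without the 4 libraries lowest in them.

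Cells that carry MCT1 were set beside it. The summed level of 10 astrocyte markers was 3954 to 4492 CPM in Old_CP2, 4412 to 5165 CPM in Old and 3692 to 4249 CPM in Young, so that it was highest in Old, as Slc16a1 was. Of the 10 astrocyte markers 5 were called higher in Old against Young (median log2 fold change 0.26), and 0 were called in Old_CP2 against Old by edgeR (median -0.20; 7 at an unadjusted p under 0.05), while DESeq2 called 4 and limma voom 0. Relative to the mean log2 level of these markers, Slc16a1 was -1.92 ± 0.13 in Old_CP2, -1.83 ± 0.05 in Old and -1.92 ± 0.20 in Young (SD, n = 4 each). On that scale all 3 groups overlapped, and the differences were -0.09 for Old_CP2 against Old and 0.09 for Old against Young. This marker list was set beside Slc16a1 after its values were seen, and no test was made.

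Relative to 12 endothelial markers, all 4 Old libraries again lay above all 8 others for Slc16a1. It was 1.176, 1.503, 1.310 and 1.330 log2 units above their mean in Old_CP2 libraries, 1.769, 1.712, 1.653 and 1.752 in Old libraries and 1.376, 1.195, 1.204 and 1.544 in Young libraries. The difference was -0.39 in Old_CP2 against Old and 0.39 in Old against Young, each with an exact two-sided permutation p of 0.02857, the smallest that 4 against 4 libraries can give, and of 0.2 after adjustment over 21 such tests. The summed endothelial level was 254.5 to 317.1 CPM in Old_CP2, 260.9 to 282.1 CPM in Old and 270.1 to 294.5 CPM in Young, with overlap between all 3 groups. In Old_CP2 against Old edgeR called 0 of these 12 markers, but their median log2 fold change was 0.14. At an unadjusted p under 0.05 there were 4, with Tie1, Emcn and Tek higher and Cldn5 lower. The median in Old against Young was -0.07, with 3 at an unadjusted p under 0.05 and 0 called by edgeR. Relative to 10 oligodendrocyte markers, chosen after the values were seen, Slc16a1 was 0.46 log2 units higher in Old than in Young and 0.29 higher in Old_CP2 than in Young, with no overlap in either pair. The summed oligodendrocyte level was 4831 to 6732 CPM in Old_CP2, 5411 to 7741 CPM in Old and 5946 to 7182 CPM in Young. What part astrocyte RNA has in the Slc16a1 result was not tested.

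Slc16a3 (ENSMUSG00000025161; chromosome 11, 120948480 to 120960868, plus strand) encodes MCT4, a carrier by which glycolytic cells release lactate. It had 5.66, 5.09, 4.34 and 4.51 CPM in Old_CP2 libraries, 3.57, 3.93, 5.92 and 4.45 CPM in Old libraries, and 2.71, 3.68, 2.81 and 3.12 CPM in Young libraries. All 4 Old_CP2 libraries were above all Young libraries, 3 of 4 Old libraries were too, and the 2 old groups overlapped fully. In Old_CP2 against Young it rose by 59.0%, a log2 fold change of 0.67 ± 0.16 (SE; edgeR adjusted p = 0.02331; 95% interval 0.33 to 1.01). The log2 fold change was 0.53 ± 0.16 in Old against Young (edgeR adjusted p = 0.06302), and in Old_CP2 against Old it was 0.13 (95% interval -0.20 to 0.47; edgeR adjusted p = 0.9116). The Old value passed the threshold without Old 7 (edgeR adjusted p = 0.04397), without Young 3 (edgeR 0.04896) and in DESeq2 (0.01695). It was 0.36 (edgeR adjusted p = 0.3626) with the choroid plexus markers as a covariate and 0.45 (edgeR adjusted p = 0.1685) without the 4 libraries lowest in them. A call in Old_CP2 but not in Old is not a difference between the old groups, whose direct comparison is given above.

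The call of Slc16a3 in Old_CP2 against Young was lost when any of 5 libraries was left out, with edgeR adjusted p of 0.07502 without Old_CP2 11, 0.05664 without Old_CP2 12, 0.06643 without Young 1, 0.06333 without Young 4 and 0.05069 without Young 5. Its log2 fold change then lay between 0.59 and 0.77 over the 12 libraries left out in turn. It was 0.47 (edgeR adjusted p = 0.2057) with the choroid plexus covariate and 0.62 (edgeR adjusted p = 0.05415) without the 4 libraries lowest in that tissue. Relative to the 10 astrocyte markers it was higher in Old_CP2 than in Young by 0.60 log2 units, again with no overlap, at an exact two-sided permutation p of 0.02857 (0.2 adjusted over 21 tests). Its difference between Old_CP2 and Old on that scale was 0.35 (exact permutation p = 0.1429). The summed level of 7 erythrocyte markers was 228.3 to 444.1 CPM in Old_CP2, 81.74 to 148.3 CPM in Old and 59.31 to 91.01 CPM in Young, with 7 of 7 called higher by edgeR in Old_CP2 against Young. In Old_CP2 against Old edgeR called 2 of 7 higher and 7 had an unadjusted p under 0.05 (median log2 fold change 1.56). The log2 fold change of Slc16a3 in that comparison was 0.13. What part blood has in the Slc16a3 result was not tested.

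Slc16a7 (ENSMUSG00000020102; chromosome 10, 125226464 to 125328963, minus strand), the gene of the high-affinity carrier MCT2, gave 13.58 to 15.55 CPM in Old_CP2, 12.53 to 15.02 CPM in Old and 13.35 to 17.21 CPM in Young. The groups overlapped in every pair. Its largest difference was a log2 fold change of -0.21 in Old against Young (95% interval -0.40 to -0.03; edgeR adjusted p = 0.1605), opposite in sign to those of Slc16a1 and Slc16a3. Relative to 10 neuronal markers the difference was -0.12 (exact permutation p = 0.2286). The summed neuronal level was 6386 to 6975 CPM in Old_CP2, 5541 to 6569 CPM in Old and 6269 to 6738 CPM in Young.

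**Figure D3:**
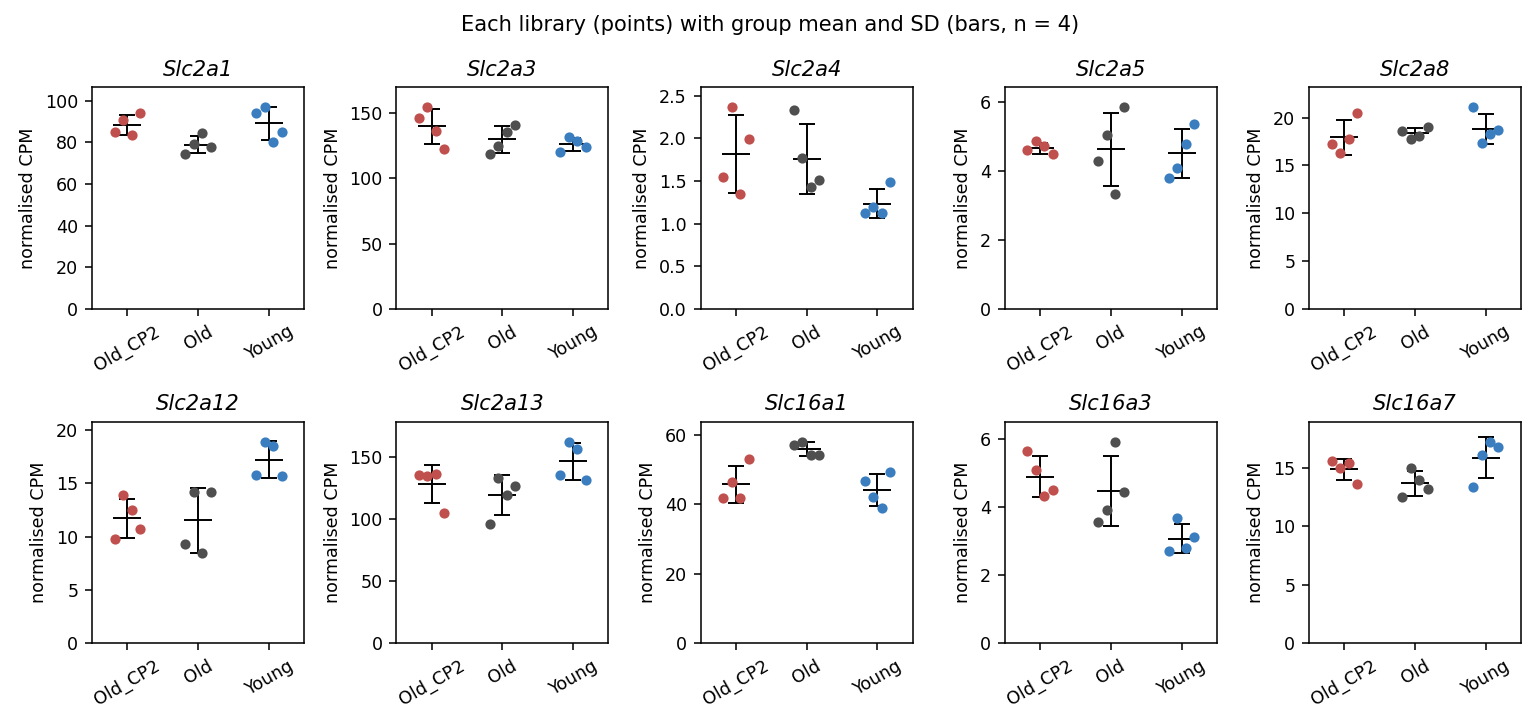
Normalised CPM of each transporter in each library (points), with group mean and SD (n = 4), axes from 0. The 4 Old libraries of Slc16a1 (54.07 to 57.90 CPM) lie above all others, and the Young libraries of Slc2a12 (15.69 to 18.88 CPM) lie above all old ones.

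Slc2a1 (ENSMUSG00000028645; chromosome 4, 119108711 to 119137330, plus strand) had 84.74, 90.47, 83.59 and 94.11 CPM in Old_CP2 libraries, 74.33, 79.02, 84.32 and 77.65 CPM in Old libraries, and 94.25, 96.70, 80.01 and 84.96 CPM in Young libraries. Among Old_CP2 libraries 3 of 4 were above all Old libraries, and 3 of 4 Old libraries were below all Young ones. Neither difference was called. Its log2 fold change was 0.16 ± 0.06 in Old_CP2 against Old (95% interval 0.02 to 0.30; edgeR adjusted p = 0.7302) and -0.17 ± 0.06 in Old against Young (95% interval -0.31 to -0.04; edgeR adjusted p = 0.131). In Old_CP2 against Young it was -0.01, with a 95% interval of -0.15 to 0.13. Relative to the 12 endothelial markers the differences were 0.06 in Old_CP2 against Old (exact permutation p = 0.4286) and -0.12 in Old against Young (exact permutation p = 0.08571). Of its 3506 annotated exon bases 105 overlap Gm12868 on the opposite strand, and without strand reads there cannot be told apart. Gm12868 averaged 649 counts per library and its log2 fold change was 0.18 in Old_CP2 against Old and -0.16 in Old against Young, neither called.

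Slc2a3 (ENSMUSG00000003153; chromosome 6, 122727809 to 122801640, minus strand) had 122.7 to 154.5 CPM in Old_CP2, 118.7 to 141.0 CPM in Old and 120.5 to 132.1 CPM in Young. It was level between Old and Young (log2 fold change 0.04, 95% interval -0.11 to 0.19). Among Old_CP2 libraries 3 of 4 were above all Young libraries, with a log2 fold change of 0.15 (95% interval -0.01 to 0.30; edgeR adjusted p = 0.2373). Relative to the neuronal markers it was 0.17 higher in Old_CP2 than in Young and 0.12 higher in Old than in Young, each with an exact permutation p of 0.08571 (0.3 adjusted over 21 tests).

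Slc2a13 (ENSMUSG00000036298; chromosome 15, 91267696 to 91573261, minus strand) had 135.8, 135.2, 136.8 and 105.5 CPM in Old_CP2 libraries, 96.54, 133.5, 120.0 and 127.3 CPM in Old libraries, and 135.6, 162.4, 156.9 and 131.9 CPM in Young libraries. Old_CP2 library 15 lay under the 3 others, which were close together. Among Old libraries 3 of 4 were below all Young libraries, with a log2 fold change of -0.30 ± 0.11 (edgeR adjusted p = 0.1239). That value was -0.20 (edgeR adjusted p = 0.4886) with the choroid plexus covariate and -0.17 (edgeR adjusted p = 0.3639) without the 4 libraries lowest in those markers. In Old_CP2 against Young the log2 fold change was -0.19 (edgeR adjusted p = 0.3136), and -0.08 with the covariate and -0.10 without the 4 libraries. Relative to the neuronal markers the difference was -0.22 in Old against Young (exact permutation p = 0.1429) and -0.17 in Old_CP2 against Young (exact permutation p = 0.2571). The edgeR log2 fold change in Old_CP2 against Old, not relative to markers, was 0.11 (95% interval -0.13 to 0.34).

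Slc2a12 (ENSMUSG00000037490; chromosome 10, 22645011 to 22704285, plus strand) encodes GLUT12. It had 9.80, 13.88, 12.46 and 10.73 CPM in Old_CP2 libraries, 9.33, 14.16, 8.50 and 14.17 CPM in Old libraries, and 15.75, 18.88, 18.54 and 15.69 CPM in Young libraries. All 8 old libraries were below all Young libraries. The log2 fold change was -0.58 ± 0.16 in Old against Young (95% interval -0.93 to -0.22; edgeR adjusted p = 0.05367) and -0.55 ± 0.16 in Old_CP2 against Young (95% interval -0.91 to -0.20; edgeR adjusted p = 0.05873), just short of a call in both. In Old_CP2 against Old it was 0.02 (95% interval -0.33 to 0.38). Old against Young was called without the low-count filter (edgeR adjusted p = 0.04729), by DESeq2 (0.007337), by limma voom (0.03736), without Old 8 (edgeR 0.03685) and without Old 10 (edgeR 0.03753). Old_CP2 against Young was called by DESeq2 (0.01013), by limma voom (0.04477), with the fit limited to these 2 groups (edgeR 0.01799), without Old 7 (edgeR 0.04663) and without Old 9 (edgeR 0.03762).

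Slc2a12 and the choroid plexus markers split the libraries into the same 3 tiers, though the order of the libraries within Young differed. The 4 libraries lowest in these markers had 8.50 to 10.73 CPM of Slc2a12, the other 4 old libraries 12.46 to 14.17 CPM and the Young libraries 15.69 to 18.88 CPM, in 3 ranges that do not overlap. With the markers as a covariate the log2 fold change was -0.26 in Old against Young (edgeR adjusted p = 0.2616) and -0.16 in Old_CP2 against Young (edgeR adjusted p = 0.5003). Without the 4 lowest libraries it was -0.28 (edgeR adjusted p = 0.1998) and -0.38 (edgeR adjusted p = 0.07333) in the same comparisons. Of the 12 choroid plexus markers edgeR called 0 in each comparison, with 6 at an unadjusted p under 0.05 in edgeR in Old against Young (median log2 fold change -1.40) and 9 in Old_CP2 against Young (median -1.53), where DESeq2 called 1 and limma voom 2. The summed level of 8 ependymal markers, which mark the lining of the ventricles, was 27.01 to 46.48 CPM in Old_CP2, 25.08 to 54.24 CPM in Old and 44.10 to 84.54 CPM in Young, and edgeR called 3 of 8 lower in Old against Young and 2 of 8 in Old_CP2 against Young. The covariate, the mean log2 level of the choroid plexus markers, was 4.43 to 4.98 in Young and 0.87 to 4.15 in the old libraries. It does not overlap between Young and old, so neither setting can separate choroid plexus from group. Calls over all genes in Old against Young also fell, from 1511 to 298 with the covariate and 514 without the 4 libraries. What part these tissues have in the Slc2a12 result was thus not tested. Tbpl1 on the opposite strand shares 407 of the 4237 exon bases of Slc2a12, and its log2 fold change was -0.12 in Old against Young (edgeR adjusted p = 0.1638) and -0.04 in Old_CP2 against Young.

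**Figure D4:**
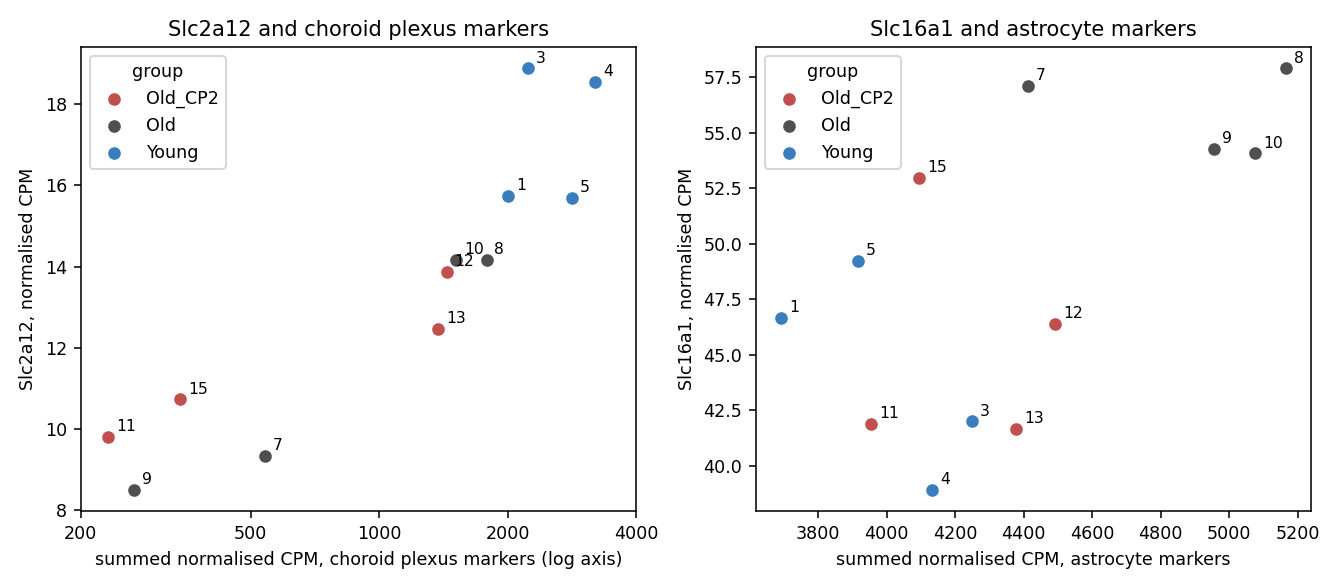
Left, Slc2a12 against the summed level of 12 choroid plexus markers (log axis). Right, Slc16a1 against the summed level of 10 astrocyte markers. Each point is a library with its number, in normalised CPM on both axes. In the left panel Old_CP2 11 and 15 and Old 7 and 9 lie lowest on both axes, and in the right panel the Old libraries lie highest for Slc16a1 (54.07 to 57.90 CPM).

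The least abundant hexose transporters gave wide intervals. Slc2a4 (ENSMUSG00000018566; chromosome 11, 69942539 to 69948188, minus strand) had 1.551, 2.363, 1.345 and 1.995 CPM in Old_CP2 libraries, 2.333, 1.765, 1.426 and 1.509 CPM in Old libraries and 1.126, 1.195, 1.124 and 1.484 CPM in Young libraries. In each old group 3 of 4 libraries were above all Young libraries, and the groups overlapped through Young 5. The log2 fold change was 0.56 ± 0.20 in Old_CP2 against Young (edgeR adjusted p = 0.1183) and 0.51 ± 0.20 in Old against Young (edgeR adjusted p = 0.1583). Slc2a5 (ENSMUSG00000028976; chromosome 4, 150119283 to 150144169, plus strand) had 4.47 to 4.85 CPM in Old_CP2, 3.34 to 5.83 CPM in Old and 3.79 to 5.37 CPM in Young, with log2 fold changes of 0.01 to 0.05 and 95% intervals that reached 0.34 to 0.38 above 0. These values moved with the choroid plexus settings. In Old against Young the log2 fold change was 0.24 with the covariate (edgeR adjusted p = 0.4986) and 0.27 without the 4 libraries (edgeR adjusted p = 0.3912), and in Old_CP2 against Young it was 0.31 (edgeR adjusted p = 0.3657) and 0.09 (edgeR adjusted p = 0.768). The summed microglial level was 353.5 to 372.3 CPM in Old_CP2, 361.4 to 382.9 CPM in Old and 272.3 to 337.5 CPM in Young, and all Young libraries lay below all old ones. Slc2a5 relative to the 10 microglial markers differed by 0.19, -0.21 and -0.02 in Old_CP2 against Old, Old against Young and Old_CP2 against Young (lowest exact permutation p 0.2857).

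Slc2a8 (ENSMUSG00000026791; chromosome 2, 32972990 to 32982083, minus strand) had close levels in the 3 groups. Its level was 17.95 ± 1.82 CPM in Old_CP2, 18.37 ± 0.558 CPM in Old and 18.85 ± 1.57 CPM in Young (SD, n = 4 each). The 95% intervals of its log2 fold change were -0.20 to 0.13 in Old_CP2 against Old, -0.20 to 0.13 in Old against Young and -0.24 to 0.09 in Old_CP2 against Young.

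The other genes of hexose and lactate handling were read from 11 lists. None of their 74 tested genes (of 80) was called in Old_CP2 against Old by edgeR, DESeq2 or limma voom, and 4 had an unadjusted edgeR p under 0.05. Between Old and Young edgeR called 6 of the 74 and in Old_CP2 against Young 5, while DESeq2 called 12 in each and limma voom 7. These are 8.11% and 6.76% of the 74 in edgeR, near the 6.70% and 7.57% of all genes, and the 4 of 74 in Old_CP2 against Old are 5.41%, against 6.31% of all genes. At an unadjusted p under 0.05 there were 22 in Old against Young (29.7%, against 21.4% of all genes) and 26 in Old_CP2 against Young (35.1%, against 23.2%). Of the 11 other Slc16 genes, edgeR called 1, Slc16a4, the gene of MCT5, an orphan carrier, while DESeq2 and limma voom each called 2 in Old against Young and 2 in Old_CP2 against Young. It had 3.65 ± 0.637 CPM in Old_CP2, 3.70 ± 0.543 in Old and 5.28 ± 0.345 in Young (SD, n = 4 each), and fell by 0.54 on the log2 scale in Old_CP2 against Young (edgeR adjusted p = 0.02983) and by 0.51 in Old against Young (edgeR adjusted p = 0.03921). The calls were fragile, with 12 of 19 alternatives losing that of Old against Young and 7 of 19 that of Old_CP2 against Young. The highest edgeR adjusted p with 1 library left out were 0.104 (without Old 9) and 0.09212 (without Old_CP2 11). Bsg (basigin) and Emb (embigin), the chaperones that bring monocarboxylate transporters to the membrane, were not called by edgeR or limma voom in any comparison, while DESeq2 called 1 of them in Old against Young and 1 in Old_CP2 against Young. Their lowest edgeR adjusted p were 0.08777 for Bsg (log2 fold change -0.15 in Old against Young) and 0.07418 for Emb (0.23 in Old_CP2 against Young).

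Among 6 tested genes of lactate use, Hcar1, the lactate receptor, was called. It had 1.77, 1.86, 1.84 and 1.93 CPM in Old_CP2 libraries, 1.86, 2.07, 1.91 and 1.87 CPM in Old libraries, and 0.725, 1.24, 1.28 and 0.379 CPM in Young libraries. All 8 old libraries were above all Young libraries. Hcar1 had a log2 fold change of 1.09 ± 0.27 in Old against Young (edgeR adjusted p = 0.0316) and 1.03 ± 0.27 in Old_CP2 against Young (edgeR adjusted p = 0.03582), on 34 to 183 reads per library. Each call was lost in 8 of 19 alternatives, and over single libraries left out the highest edgeR adjusted p were 0.07718 and 0.09185, both without Young 1.

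Of 8 glycogen enzymes, Pygb and Pygm, the brain and muscle glycogen phosphorylases, rose in Old against Young. Pygb had 257.8 ± 9.01 CPM in Old_CP2, 281.7 ± 13.3 CPM in Old and 217.4 ± 10.99 CPM in Young (SD, n = 4 each), with log2 fold changes of 0.37 in Old against Young (edgeR adjusted p = 0.001572) and 0.25 in Old_CP2 against Young (edgeR adjusted p = 0.01112). Pygm had 44.14 ± 2.62 CPM in Old_CP2, 49.41 ± 3.56 CPM in Old and 39.66 ± 1.501 CPM in Young, and its log2 fold change in Old against Young was 0.32 (edgeR adjusted p = 0.008859). Both are expressed in astrocytes, whose markers are given above for Old against Young and for Old_CP2 against Old. In Old_CP2 against Young edgeR called 0 of the 10 astrocyte markers (median log2 fold change 0.07). What part astrocyte RNA has in the Pygb and Pygm results was not tested. Of 7 fructose and polyol enzymes, Aldoc, the brain form of aldolase, rose in Old against Young by 0.34 on the log2 scale (edgeR adjusted p = 0.007824). Its level was 816.2 ± 39.0 CPM in Old_CP2, 901.1 ± 65.4 CPM in Old and 710.2 ± 37.9 CPM in Young. Its mean was thus highest in Old, as was that of the astrocyte markers. What part astrocyte RNA has in the Aldoc result was not tested either. Sord, sorbitol dehydrogenase, rose in Old_CP2 against Young by 0.24 (edgeR adjusted p = 0.03075), a call lost in 9 of 19 alternatives, with an edgeR adjusted p of 0.08398 without Old_CP2 12.

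Of 18 genes of GLUT traffic and control, Gipc1, a PDZ adaptor that binds GLUT1, was called. It had 38.59 ± 2.131 CPM in Old_CP2, 39.74 ± 2.58 CPM in Old and 48.11 ± 0.862 CPM in Young (SD, n = 4 each) and fell by 0.32 in Old_CP2 against Young (edgeR adjusted p = 0.004633) and by 0.28 in Old against Young (edgeR adjusted p = 0.01112) on the log2 scale. With the choroid plexus covariate the Old against Young calls of Pygm, Aldoc and Gipc1 were lost (edgeR adjusted p of 0.07738, 0.06725 and 0.05661), as was that of Pygb in Old_CP2 against Young (0.05221). The covariate also removed the calls of Hcar1 and Slc16a4 in Old against Young (edgeR adjusted p of 0.1115 and 0.2189). In Old_CP2 against Young it removed those of Hcar1, Slc16a4 and Sord (0.1396, 0.2206 and 0.1911). Without the 4 libraries lowest in choroid plexus, Pygm, Hcar1 and Slc16a4 were lost in Old against Young (edgeR adjusted p of 0.07631, 0.1564 and 0.08899). Hcar1 and Sord were then lost in Old_CP2 against Young (0.1522 and 0.1634), while Slc16a4 kept its call there (0.03144). By edgeR no gene was called among 4 tested other hexose transporters, 5 tested sodium-coupled glucose and inositol transporters, 2 sodium-coupled lactate transporters, 6 genes of hexose phosphorylation and 5 tested inositol enzymes, of which 0 to 3 in each list and comparison had an unadjusted p under 0.05. DESeq2 called 2 of the other hexose transporters in Old against Young and 1 in Old_CP2 against Young, and 1 sodium-coupled transporter and 1 inositol enzyme in Old_CP2 against Young, the enzyme also by limma voom. The list medians in Old_CP2 against Old lay between -0.21 (other hexose transporters) and 0.07 for 10 lists, and the sodium-coupled lactate transporters gave -0.77 over 2 genes, against 0.0017 over all genes. In Old against Young they lay between -0.09 (other Slc16 genes) and 0.15 (other hexose transporters).

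The genes whose levels followed each member most closely over the 12 libraries were named by Pearson's r of log2 CPM over 13889 genes. The libraries share their groups and their tissue makeup, so these are descriptions with no test. Slc16a1 was followed by Emc8 (r = 0.913), Acsbg1 (0.905) and Ndrg2 (0.904), of which Acsbg1 is in the astrocyte list used here. Slc2a12 was followed by Mapk15 (r = 0.974), Wdr63 (0.962) and Slc31a1 (0.961). Slc2a1 was followed by Slc7a5 (r = 0.939), Notch4 (0.935) and Gja4 (0.890). Slc2a3 was followed by Wdr7 (r = 0.963), Hk1 (0.958), which encodes hexokinase 1, and Ets2 (0.955). Slc16a3 was followed by Sept9 (r = 0.952), Htr1a and Tenm2, Slc16a7 by Brinp3 (0.963), Kcnh7 (0.935) and Kcnv1 (0.934), and Slc2a13 by Raph1 (0.958), Smarcc1 (0.957) and Fst (0.952). Slc2a4 was followed by Pink1 (0.917), Eif2ak2 and Zdhhc20, Slc2a5 by Pa2g4 (0.925), Moap1 and Tpp1, and Slc2a8 by Actr5 (0.943), Cfp (0.928) and Timm44 (0.922).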

How the data were processed

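RNA was sequenced in 12 libraries, 4 per group. The tools named in the submitters' processing notes are bcl2fastq, TopHat, featureCounts and Subread, with mm10 as build (versions not given). The deposited table holds, per the file headers, a gene count made by the authors, unscaled, and an RPKM value made by the authors. Counts came to 79.9 to 85.4% of the total behind each RPKM, and 0 columns were of unknown meaning. The kit does not mark strand.

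The edgeR package (4.0.16, R 4.3.3) was used on the counts, with TMM factors, filterByExpr by group, and a quasi-likelihood F test over all 12 libraries with group as the only term. P-values were adjusted by Benjamini-Hochberg over the 22553 genes tested, and genes were called at an adjusted p under 0.05. A member relative to a marker list is its log2(CPM + 0.1) minus the list's mean, tested by exact two-sided permutation. DESeq2 1.42.0, limma 3.58.1 (voom), DESeq2's size factors, no low-count filter, the compared groups alone, each library left out and the choroid plexus markers (as a covariate, or without the 4 lowest libraries) were alternatives. No 2 libraries were copies (chi-square per gene at least 14.7 within groups). All members, pathway genes called in edgeR, overlapping genes, and the 3 genes of a mean of 1 CPM or more most correlated with each member were named. Members and lists were chosen with earlier results of these data known. Promoter windows are from RefSeq (GRCm38.p6), matched by symbol.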

Additional observations from a re-analysis of the deposited data

Results flagged for a closer look

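Single libraries were compared with the rest of their group over 51 sets of a gene and a group, and chance sets apart about 1 in 20 such sets. Slc2a13 in Old_CP2 library 15 had 105.5 normalised CPM, against 135.2, 135.8 and 136.8 CPM in the other Old_CP2 libraries, and the gap was 0.948 of the group's range. Aldoc in Old library 7 had 998.1 normalised CPM, against 855.6, 873.8 and 876.8 CPM in the other Old libraries, a gap of 0.851 of the range.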

How the results depend on the processing

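No paired analysis was possible because the groups share no replicate numbers. The count of genes called in Old_CP2 against Old was 10, and 17 without the low-count filter, 21 without the 4 libraries lowest in choroid plexus markers and 108 in DESeq2, with 6 to 38 over single libraries left out. In Old against Young it was 1511, and 298 with the choroid plexus covariate, 514 without those 4 libraries and 2474 in DESeq2 (855 to 1706 over single libraries). In Old_CP2 against Young it was 1707, and 325, 709 and 2652 in the same settings (827 to 1930). The count of members called was 0 in Old_CP2 against Old under every alternative run. In Old against Young it was 1, and 2 without the filter, 0 with the covariate, 0 without the 4 libraries, 3 in DESeq2 and 2 in limma voom (0 to 2 over single libraries). In Old_CP2 against Young it was 1, and 0 with the covariate, 0 without the 4 libraries, 2 in DESeq2, 2 in limma voom and 2 with the fit limited to the groups compared (0 to 2). Of 570 member fold changes recomputed, 518 kept direction and side of the threshold, 13 passed it, 14 lost it and 25 changed sign. None of those that changed sign had been called. Without the 4 libraries the log2 fold change in Old_CP2 against Old was -0.18 for Slc2a5 and -0.10 for Slc2a12, and without the filter that of Slc2a1 in Old_CP2 against Young was 0.0004. Over single libraries left out, values on both sides of 0 in Old_CP2 against Old ran from -0.11 to 0.21 for Slc2a4, -0.12 to 0.14 for Slc2a5, -0.10 to 0.0116 for Slc2a8, -0.10 to 0.13 for Slc2a12 and -0.14 to 0.0465 for Slc16a4. In Old against Young they ran from -0.0893 to 0.17 for Slc2a5 and -0.0658 to 0.023 for Slc2a8, and in Old_CP2 against Young from -0.025 to 0.15 for Slc2a5, -0.0552 to 0.0351 for Slc2a1 and -0.022 to 0.11 for Slc16a1. Relative to markers, Slc16a1 in Old_CP2 against Young was 0.0004 with endothelial markers (-0.0574 to 0.0718 over single libraries) and -0.0044 with astrocyte markers. Slc2a5 relative to microglia in the same groups ran from -0.063 to 0.0292 over single libraries. Slc2a13 relative to neurons in Old_CP2 against Old ran from -0.0022 to 0.13. Further uncalled values that moved by over 1.5 times under at least 1 of the choroid plexus settings, given with the covariate and then without the 4 libraries, were those of Slc2a4 in Old_CP2 against Old (0.0508 and 0.19), Slc2a8 in Old_CP2 against Old (-0.0417 and -0.11) and in Old_CP2 against Young (-0.12 and -0.14), Slc2a8 in Old against Young (-0.0784 and -0.0321), Slc2a3 in Old against Young (0.0712 and 0.0755), Slc2a1 in Old_CP2 against Young (-0.0563 and -0.0245), Slc16a7 in Old_CP2 against Young (-0.0501 and -0.0576), Slc16a1 in Old_CP2 against Young (0.0275 and 0.0023) and Slc2a13 in Old_CP2 against Old (0.12 and 0.0663). RPKM recomputed on TMM-scaled totals moved 32 of 66 levels, sums and shares by more than the SD between libraries. It kept the order of the members and was 1.162 to 1.279 times the deposited value, because these totals are smaller. For the other changes the cause was not tested. Low depth limits Slc2a4 most among the 10 members, at 87 to 232 reads per library, and Hcar1 rests on fewer, 34 to 183.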
